A study of Mus musculus with 67 samples.

Results

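The Myc, Max and Mxd network was followed as 9 genes, Myc, Mycn, Max, Mxd1, Mxd3, Mxd4, Mxi1, Mnt and Mlx, of the 35612 genes in the count tables of 60 RNA-seq libraries. The genes were chosen by name and all 9 were found. B cells and CD4+ T cells had been purified with enrichment kits from the spleen and the inguinal and brachial lymph nodes of C57BL/6 mice, and no engineered allele is named for any library. The study's general methods give young adult mice of both sexes. The mice had been immunized with a MOG peptide, a fragment of a myelin protein that induces experimental autoimmune encephalomyelitis (EAE), or were naive. Each of the 4 sets (EAE B, naive B, EAE T and naive T cells) held 5 arms of 3 libraries. In 4 arms the cells were held for 18 h with beads that trigger the antigen receptor, through anti-CD3 on T cells and anti-IgM/IgG on B cells. These beads also carried anti-Btla with soluble interferon beta (IFNb), anti-Btla alone, control Ig with IFNb, or control Ig alone, and the remaining arm was unstimulated. Btla is an inhibitory receptor of lymphocytes, and the antibody used blocks its ligand Hvem and also triggers inhibitory signaling.

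Myc and its paralog Mycn are transcription factors that bind DNA as dimers with Max, at a short site called the E-box, and raise the transcription of genes for ribosomes, nucleotides and metabolism. Mxd1, Mxd3, Mxd4, Mxi1 and Mnt pair with the same partner, occupy the same sites and recruit Sin3 corepressors, so that Max is shared between activating and repressing dimers. Mlx is a Max-like protein that pairs with the glucose-responsive Mondo factors (Mlxip and Mlxipl) and with some of the repressors. In lymphocytes, antigen receptor signals induce Myc, which is needed for the growth of the cells before they divide.

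The E-box CACGTG, which is its own reverse complement, was searched for in the RefSeq promoter windows (GRCm38.p6; 250 bases before to 50 after a start). Windows were found for 8 of the 9 genes, the exception being Myc, and 4 of those 8 genes held the motif, in 4 of the members' 10 windows. Of all 27025 genes with a window, 8.09% held it, as did 7.15% of all 32851 windows of that length. The stretches are shown because they hold the letters that the proteins of this network bind; the capitals mark the motif, each stretch runs 5′ to 3′ on the strand of its gene, and a match says nothing of whether a factor was bound.
Max, chr12:76962246-76962291, minus strand: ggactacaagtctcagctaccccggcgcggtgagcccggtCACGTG
Mxd4, chr5:34187899-34187960, minus strand: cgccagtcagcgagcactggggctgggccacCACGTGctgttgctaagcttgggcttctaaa
Mnt, chr11:74830761-74830831, plus strand: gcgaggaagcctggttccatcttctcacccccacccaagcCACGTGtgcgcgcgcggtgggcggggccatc
Mlx, chr11:101087210-101087280, plus strand: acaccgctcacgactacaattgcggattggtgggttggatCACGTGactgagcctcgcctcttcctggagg
The motif began 3 bases before the start of Max, 219 before that of Mxd4, 123 before that of Mnt and 40 before that of Mlx. The windows of Mycn, Mxd1, Mxd3 and Mxi1 did not hold these letters.

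Levels are given as CPM, the estimated counts of a gene scaled to a common library total (counts per M), as mean ± SD over 3 libraries. Changes are log2 ± SE from edgeR, and a call means a p below 0.05 after Benjamini-Hochberg adjustment over all genes tested. B cell libraries held 6.68 to 62.0 M counts and T cell libraries 7.30 to 34.0 M. EAE B libraries with anti-Btla were shallower (6.68 to 29.5 M) than those with control Ig (36.2 to 62.0 M). The 7 B cell markers summed to 3910 to 7040 CPM in B cell libraries and the 8 T cell markers to at most 33.5 CPM there. In T cell libraries the T cell markers summed to 1790 to 3330 CPM. The B cell markers summed to 21.9 to 200 CPM in EAE unstimulated T cells and 11.2 to 50.6 CPM in EAE T cells with control Ig. In naive unstimulated T cells they summed to 35.2 to 73.6 CPM. The labels call all T libraries CD4+, yet Cd8a and Cd8b1 summed to 926 to 1100 CPM in naive unstimulated T cells, against 19.5 to 26.2 CPM in EAE unstimulated T cells, and 9 myeloid markers summed to 110 to 318 CPM in EAE unstimulated T cells, against 12.2 to 18.1 CPM in naive ones. The part of these cells in the results on T cells was not tested. In such bulk libraries, fewer cells of a type and less RNA per cell cannot be told apart.

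Myc (chromosome 15, 61985391 to 61990374, plus strand, GRCm38) varied 13.6-fold over the 20 groups, with the lowest mean in unstimulated naive T cells and the highest in EAE T cells with control Ig and IFNb. The groups fell into an order with few clear steps, since libraries of neighbours overlapped in all but 4 of 19 steps. The first step lay between unstimulated naive T (37.6 ± 2.74 CPM) and unstimulated EAE T cells (80.5 ± 26.6 CPM). The next lay between unstimulated EAE T cells, with 110.3 CPM at most, and naive B cells with anti-Btla, with 143 CPM at least. The third separated naive B cells with anti-Btla and IFNb (at most 173 CPM) from unstimulated naive B cells (at least 178 CPM). Libraries of EAE B cells with anti-Btla lay on both sides of it (147 to 225 CPM). The last lay between EAE B cells with control Ig (at most 319.9 CPM) and EAE T cells with anti-Btla (at least 397 CPM). Single libraries of other groups fell within that gap, with 368 CPM in an EAE B library with control Ig and IFNb and 352 CPM in an EAE T library with anti-Btla and IFNb.

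**Figure D1:**
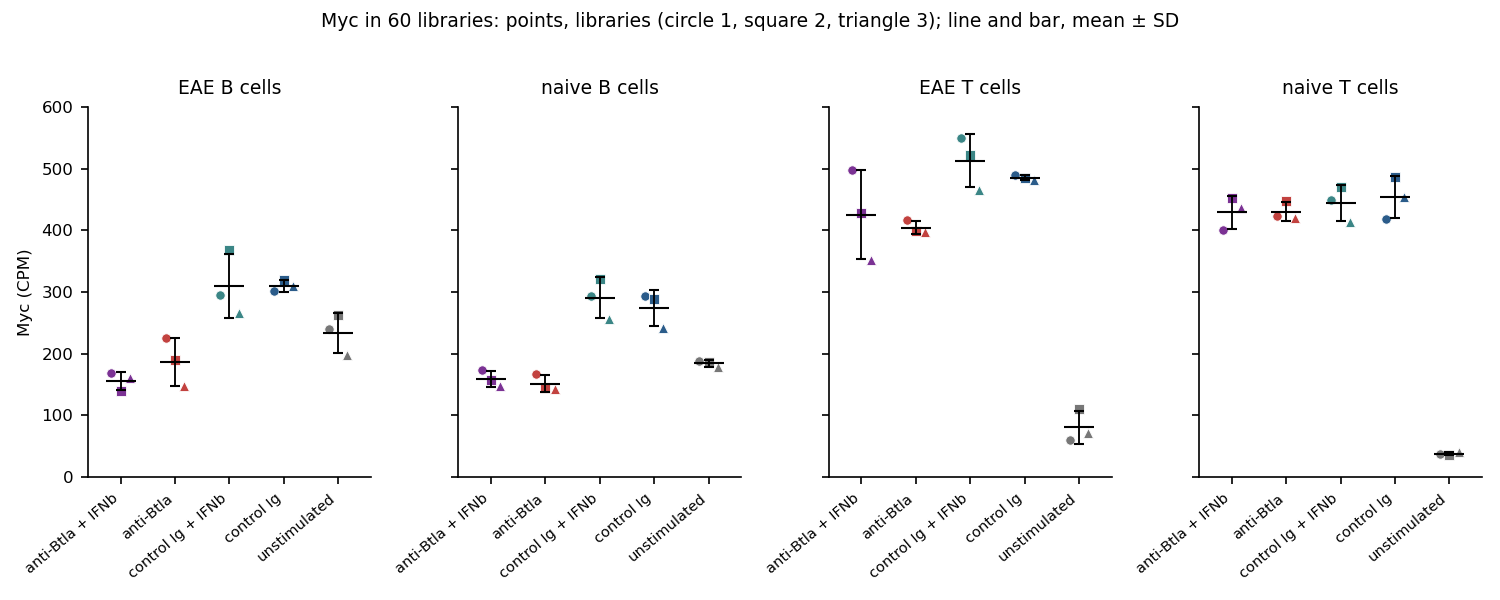
Myc in CPM (y axis, from 0) in every library, by arm, in EAE B, naive B, EAE T and naive T cells; points are libraries 1 to 3, the line and bar are mean ± SD. Both anti-Btla arms of B cells lie below their control Ig arms (group means of 151 to 187 CPM against 274 to 310.0 CPM), while unstimulated T cells lie far below every stimulated T arm.

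The first comparison set control Ig beads, which trigger the antigen receptor, against unstimulated cells. No time in culture is given for the unstimulated cells. Antigen receptor signals, 18 h in culture and contact with beads therefore cannot be told apart in these changes. In EAE T cells 6 of 9 members were called, 5 higher and 1 lower, where 63.1% of all genes tested were called. In naive T cells 5 of 8 members tested were called, 3 higher and 2 lower, where 50.1% of all genes were; Mycn was too low to be tested there. In EAE B cells 3 of 9 were called against 39.8% of all genes, and in naive B cells 3 of 9 against 40.2%, in each case 2 higher and 1 lower. The counts of members thus followed the shares of all genes called. The median change of the members was 0.47 in EAE T, 0.16 in naive T, 0.11 in EAE B and 0.11 in naive B cells, where the median of all genes was -0.07, -0.02, -0.05 and -0.02.

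Myc had 490.1, 484 and 481 CPM in EAE T cells with control Ig, against 59.5, 110.3 and 71.5 CPM in unstimulated EAE T cells. It had 419, 487 and 454 CPM in naive T cells with control Ig, against 37.5, 35.0 and 40.4 CPM in unstimulated naive T cells. Every stimulated library lay above every unstimulated one, and the change was 2.65 ± 0.16 in EAE T cells (edgeR adjusted p = 1.06e-09) and 3.64 ± 0.06 in naive T cells (edgeR adjusted p = 3.65e-18). In CPM these were 6.03-fold and 12.1-fold. The effect in EAE T minus that in naive T cells was -0.93 ± 0.18 (edgeR adjusted p = 0.000231). In EAE T cells the 8 T cell markers summed to 2980 to 3130 CPM with control Ig and 1790 to 2210 CPM unstimulated, and the 9 myeloid markers to 21.3 to 68.1 and 110 to 318 CPM. The share of mitochondrial counts was 1.27 to 2.81% with control Ig and 5.28 to 7.00% unstimulated, and the part of these in the results on EAE T cells was not tested.

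In B cells Myc rose much less. It had 301, 319.9 and 309 CPM in EAE B cells with control Ig, against 239, 262 and 198 CPM in unstimulated EAE B cells. It had 293, 288 and 241 CPM in naive B cells with control Ig, against 189, 187 and 178 CPM in unstimulated naive B cells. The groups did not overlap in either set. The change was 0.56 ± 0.12 in EAE B cells (edgeR adjusted p = 0.00186) and 0.67 ± 0.07 in naive B cells (edgeR adjusted p = 1.03e-06), or 1.33-fold and 1.49-fold in CPM. Scaling to total counts in place of TMM moved the median of all genes by -0.131 in EAE B and by -0.107 in naive B cells, a shift smaller than these changes. The 7 B cell markers summed to 3910 to 4430 CPM with control Ig and 6490 to 7040 CPM unstimulated in EAE B cells, and to 4270 to 4700 and 6430 to 6880 CPM in naive B cells, and their part in the result was not tested.

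Max (chromosome 12, 76937269 to 76962201, minus strand), the shared partner, rose on stimulation in both T cell sets. It had 278, 245 and 254 CPM in EAE T cells with control Ig, against 163, 154 and 148 CPM in unstimulated EAE T cells, a change of 0.78 ± 0.08 (edgeR adjusted p = 2.09e-07). In naive T cells it averaged 166 ± 3.38 CPM with control Ig and 147 ± 8.58 CPM unstimulated, a change of 0.24 ± 0.06 (edgeR adjusted p = 0.00269). The effect in EAE T minus that in naive T cells was 0.61 ± 0.10 (edgeR adjusted p = 1.7e-05). In B cells Max changed by 0.11 ± 0.12 in EAE and 0.11 ± 0.07 in naive cells, and neither was called.

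Among the repressors, Mxd4 and Mxd1 moved in opposite directions in T cells. Mxd4 (chromosome 5, 34173883 to 34187720, minus strand), a Mxd protein found in resting and differentiated cells, had 15.1, 17.7 and 19.4 CPM in EAE T cells with control Ig, against 48.5, 34.0 and 42.5 CPM unstimulated. In naive T cells it had 31.3, 33.9 and 30.4 CPM with control Ig, against 60.6, 72.0 and 63.9 CPM unstimulated. Its libraries did not overlap in either set, and it fell by 1.22 ± 0.14 (edgeR adjusted p = 2.17e-06) in EAE and by 0.98 ± 0.07 (edgeR adjusted p = 4.99e-10) in naive T cells. In B cells Mxd4 was called higher, by 0.20 ± 0.07 in EAE and 0.22 ± 0.07 in naive cells (edgeR adjusted p = 0.0347 and 0.0249). Those calls were slight: the libraries overlapped in CPM, and both were lost without the replicate block (0.286 and 0.0751), under total count scaling (0.482 and 0.276) and without single libraries, EAE B control Ig 2 and 3 and unstimulated 3, and naive B control Ig 2 and unstimulated 1, 2 or 3.

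Mxd1 (chromosome 6, 86647042 to 86669161, minus strand), which is known to rise as cells differentiate, had 106, 90.6 and 127 CPM in naive T cells with control Ig, against 73.6, 53.5 and 64.2 CPM unstimulated, and rose by 0.84 ± 0.08 (edgeR adjusted p = 3.99e-08). In EAE T cells it had 176, 358 and 309 CPM with control Ig, against 150.5, 312 and 218 CPM unstimulated. Those groups overlapped, library 1 was the lowest in each of the 5 EAE T arms, and the increase of 0.35 ± 0.08 (edgeR adjusted p = 0.00113) was seen within 3 of 3 numbers; without the replicate block it was not called (edgeR adjusted p = 0.37). The effect in EAE T minus that in naive T cells was -0.41 ± 0.11 (edgeR adjusted p = 0.00631), a call lost without the block (0.48) and without the libraries numbered 2 (0.124). In B cells Mxd1 changed by 0.16 ± 0.13 in EAE and 0.16 ± 0.10 in naive cells, and was not called.

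Mxi1 (chromosome 19, 53310518 to 53375810, plus strand), the repressor long known as a Max interactor, had the largest difference in response between the T cell sets of the 9 members. It had 23.6, 23.9 and 26.9 CPM in naive T cells with control Ig, against 54.5, 57.8 and 52.8 CPM unstimulated, and fell by 1.08 ± 0.09 (edgeR adjusted p = 1.34e-08). In EAE T cells it had 36.8, 48.2 and 42.4 CPM with control Ig, against 40.3, 34.5 and 34.7 CPM unstimulated, a change of 0.26 ± 0.11 that narrowly missed the threshold (edgeR adjusted p = 0.0535) and was called with DESeq2 size factors in edgeR (0.0415), without the filter on low counts (0.0442) and by DESeq2 (0.0416). The difference between the effects was 1.41 ± 0.15 (edgeR adjusted p = 3.23e-08). In B cells Mxi1 changed by 0.13 ± 0.09 in EAE and 0.04 ± 0.09 in naive cells.

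Mxi1 was also looked at by transcript, as shares of the counts of Mxi1. Mxi1-201 held 35.4 ± 3.27% of them in EAE T cells with control Ig and 19.2 ± 11.8% in unstimulated EAE T cells, and Mxi1-202 held 15.1 ± 3.90% and 27.5 ± 6.22%. In naive T cells Mxi1-201 held 12.5 ± 12.5% with control Ig and 21.2 ± 9.22% unstimulated. These shares were estimated from reads that the transcripts largely have in common, and their spread within a group was wide.

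Mnt (chromosome 11, 74830920 to 74845725, plus strand), the broadly expressed repressor of the network, varied least of the well expressed members, 1.47-fold over the 20 groups, and no neighbours in its order were free of overlap. It had 31.0, 28.6 and 32.1 CPM in EAE B cells with control Ig, against 43.5, 50.1 and 38.5 CPM unstimulated, and fell by 0.39 ± 0.09 (edgeR adjusted p = 0.0048). In naive B cells the change was -0.15 ± 0.09 (edgeR adjusted p = 0.192, and 0.0266 under total count scaling), and the 2 effects differed by -0.22 ± 0.13, which was not called. In T cells its group means ran from 36.2 to 44.96 CPM, with changes of 0.09 ± 0.09 in EAE and 0.13 ± 0.07 in naive cells that were not called.

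Mlx (chromosome 11, 101087277 to 101092207, plus strand) averaged 21.6 ± 0.539 CPM in EAE T cells with control Ig, against 14.7 to 18.3 CPM in the unstimulated libraries. The groups did not overlap and the change was 0.47 ± 0.12 (edgeR adjusted p = 0.00342). It changed by 0.18 ± 0.09 in naive T cells and by -0.02 ± 0.09 in both B cell sets, and none of these was called. Mlx overlaps another annotated gene, Psmc3ip, as Mxd3 does Prelid1, Mxd4 does Gm42846 and Mxi1 does Gm10197, and the strand setting of the counting is not given in the sources used here.

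Mycn (chromosome 12, 12936093 to 12941914, minus strand), which is best known from embryonic tissue and neuroblastoma, was low in every group. In naive B cells with control Ig it averaged 0.596 CPM, against 1.27 CPM unstimulated, with no overlap between libraries, and fell by 0.97 ± 0.29 (edgeR adjusted p = 0.0136); the call was lost without control Ig library 1 (0.0822) or unstimulated library 1 (0.0676). In EAE B cells the change was -0.80 ± 0.36 (edgeR adjusted p = 0.0901, and 0.0493 under total count scaling). In EAE T cells it averaged 1.47 CPM with control Ig and 0.680 CPM unstimulated, a change of 1.16 ± 0.45 (edgeR adjusted p = 0.0325) that rested on 10 to 20 counts per library with control Ig and 4 to 19 unstimulated and was lost when any of 5 of the 6 libraries was left out (adjusted p of 0.0533 to 0.112). Mxd3 (chromosome 13, 55325168 to 55329823, minus strand), a Mxd protein of proliferating cells, averaged 0.725 to 1.56 CPM, and was called in none of the 34 comparisons.

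**Figure D2:**
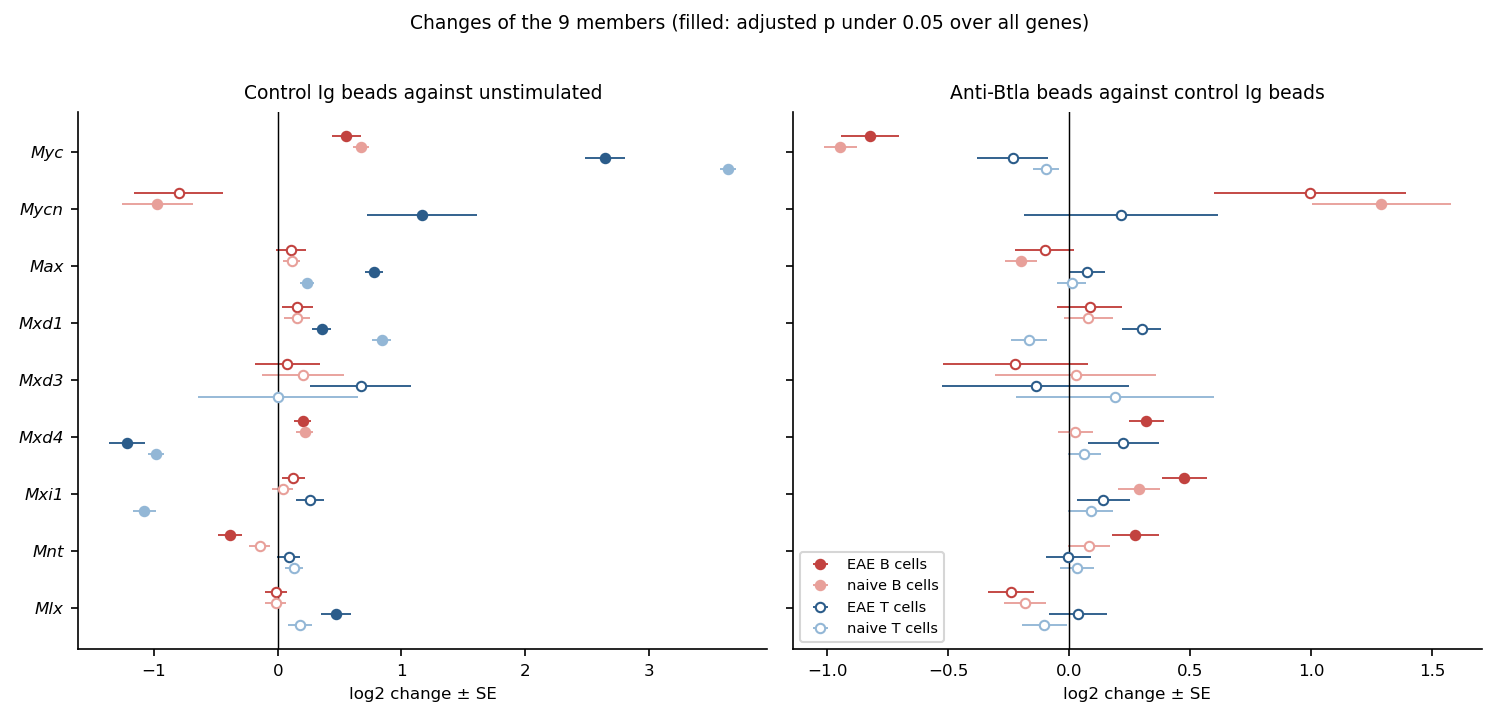
Log2 change ± SE (x axis) of each member (rows), for control Ig against unstimulated cells (left) and anti-Btla against control Ig (right), in EAE B, naive B, EAE T and naive T cells; filled points passed the edgeR test over all genes. Myc stands furthest to the right on the left panel (2.65 and 3.64 in T cells), and on the right panel its B cell points (-0.82 and -0.95) lie furthest to the left.

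The second comparison, anti-Btla against control Ig on stimulated cells, asked how triggering Btla alters the network. In B cells Myc was lower with anti-Btla in both sets. In EAE B cells 4 of 9 members were called, 3 higher and 1 lower, where 30.1% of all genes were called. Among the members in naive B cells, 4 of 9 were called, 2 higher and 2 lower, where 32.8% of all genes were. The median change of the members was 0.09 in EAE and 0.03 in naive B cells, against 0.04 and 0.01 for all genes. Without the replicate block 2 of the 4 calls in EAE B cells were lost, those of Mxd4 (0.154) and Mnt (0.0882).

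Myc had 225, 189 and 147 CPM in EAE B cells with anti-Btla, against 301, 319.9 and 309 CPM with control Ig. It had 167, 144 and 143 CPM in naive B cells with anti-Btla, against 293, 288 and 241 CPM with control Ig. All anti-Btla libraries lay below all control Ig libraries, and Myc fell by 0.82 ± 0.12 in EAE B cells (edgeR adjusted p = 0.000163) and by 0.95 ± 0.07 in naive B cells (edgeR adjusted p = 1.11e-07). In CPM the anti-Btla means were 0.603 and 0.551 of those with control Ig. In naive B cells they also lay below the unstimulated libraries (178 to 189 CPM), while in EAE B cells they overlapped them (198 to 262 CPM). The 7 B cell markers moved alongside: they summed to 5380 to 5700 CPM with anti-Btla and 3910 to 4430 CPM with control Ig in EAE B cells, and to 5150 to 5910 and 4270 to 4700 CPM in naive B cells. Their part in the result was not tested.

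Mycn was higher with anti-Btla in naive B cells, with 1.57 CPM on average with anti-Btla and 0.596 CPM with control Ig, and rose by 1.29 ± 0.29 (edgeR adjusted p = 0.00253). That rests on 36 to 64 counts per library with anti-Btla and 16 to 31 with control Ig. In EAE B cells its change was 0.99 ± 0.40 and was not called (edgeR adjusted p = 0.0747). Max was called lower in naive B cells, by 0.20 ± 0.07 (edgeR adjusted p = 0.0338), but its libraries overlapped (89.2, 81.5 and 84.0 CPM with anti-Btla, against 95.4, 97.5 and 82.1 CPM with control Ig) and the call was lost under total count scaling (0.246), without the block (0.0662) and without each of 5 of the 6 libraries, control Ig 3 being the exception. In EAE B cells Max changed by -0.10 ± 0.12.

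Mxi1 was the repressor that rose with anti-Btla in both B cell sets. It had 17.6, 18.3 and 20.4 CPM in EAE B cells with anti-Btla, against 11.9, 13.8 and 12.7 CPM with control Ig, and 18.8, 20.4 and 21.2 CPM in naive B cells with anti-Btla, against 16.2, 16.5 and 13.7 CPM with control Ig. The groups did not overlap. The change was 0.48 ± 0.09 in EAE B cells (edgeR adjusted p = 0.00156) and 0.29 ± 0.09 in naive B cells (edgeR adjusted p = 0.0185); the second call was lost without control Ig library 3 (0.12) or anti-Btla library 3 (0.0636).

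Mxd4 rose in EAE B cells, with 58.6, 58.4 and 75.7 CPM with anti-Btla, against 39.6, 46.9 and 60.6 CPM with control Ig. The groups overlapped in CPM, yet the value was higher within 3 of 3 numbers and the change of 0.32 ± 0.07 was called (edgeR adjusted p = 0.00396). It changed by 0.03 ± 0.07 in naive B cells. The 2 effects differed by 0.26 ± 0.10, which was not called, so that the increase cannot be said to be particular to EAE B cells. Mnt had 41.0, 39.5 and 36.8 CPM in EAE B cells with anti-Btla, against 31.0, 28.6 and 32.1 CPM with control Ig, a change of 0.27 ± 0.10 at the edge of the threshold (edgeR adjusted p = 0.0481); with any 1 of the 6 libraries left out it was not called (0.0778 to 0.302). Mnt changed by 0.08 ± 0.09 in naive B cells. Mxd1 changed by 0.09 ± 0.13 in EAE and 0.08 ± 0.10 in naive B cells, and Mlx by -0.24 ± 0.10 and -0.18 ± 0.09, none of them called.

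In T cells no member was called with anti-Btla. In EAE T cells 0 of 9 members and 0.0686% of all genes were called, and in naive T cells 0 of 8 tested members and 0% of all genes. The naive T fit had 1249 genes at an unadjusted p below 0.05, and DESeq2 called 42 genes. Myc had 416, 399 and 397 CPM in EAE T cells with anti-Btla, against 490.1, 484 and 481 CPM with control Ig. Those libraries did not overlap, but the change of -0.23 ± 0.15 was not called (edgeR adjusted p = 0.661). In naive T cells Myc had 423, 447 and 421 CPM with anti-Btla, against 419, 487 and 454 CPM with control Ig, a change of -0.10 ± 0.05 (edgeR adjusted p = 0.674).

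Mxd1 was the member nearest to a call in T cells. It had 235, 418 and 347 CPM in EAE T cells with anti-Btla, against 176, 358 and 309 CPM with control Ig, higher within 3 of 3 numbers. The change was 0.30 ± 0.08 (edgeR adjusted p = 0.205), and Mxd1 was called without the filter on low counts (adjusted p = 0.0321) and by DESeq2 (adjusted p = 0.0348). The share of mitochondrial counts also differed between these arms, at 2.96 to 3.89% with anti-Btla and 1.27 to 2.81% with control Ig, and its part in the result was not tested. In naive T cells Mxd1 changed by -0.17 ± 0.07.

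The effect of anti-Btla on Myc was tested between the cell types. The effect in naive B minus that in naive T cells was -0.81 ± 0.09 (edgeR adjusted p = 1.05e-06), and Myc was the 1 member of 9 called in that test, where 16.9% of all genes were called. In EAE cells the difference was -0.64 ± 0.21 and missed the threshold (edgeR adjusted p = 0.0569), with 0 of 9 members called against 9.66% of all genes. B and T cell libraries were counted on different sets of transcripts and may have been sequenced apart, so that cell type and such a batch cannot be told apart. Between EAE and naive B cells, 0 of 9 members and 0% of all genes differed in their anti-Btla effect (540 genes at an unadjusted p below 0.05, 8 called by DESeq2), with Myc at 0.09 ± 0.14. Between EAE and naive T cells 0 of 9 members were called against 0.244% of all genes, with Mxd1 at 0.46 ± 0.11 (edgeR adjusted p = 0.0731).

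The activation effects of the members were compared in the same way. Between EAE and naive T cells 4 of 9 members were called, the differences of Myc, Max, Mxd1 and Mxi1 given above, where 37.8% of all genes were called. Between EAE and naive B cells 0 of 9 members were, against 0.0865% of all genes. Between EAE B and EAE T cells 6 of 9 were called against 37.9% of all genes, and Myc had a difference of -2.10 ± 0.21 (edgeR adjusted p = 4.91e-08), followed by Mxd4 with 1.41 ± 0.16 (edgeR adjusted p = 1.64e-07). With a replicate number left out, 4 to 6 members were called. Between naive B and naive T cells 6 of 9 were called against 23.7% of all genes, with Myc at -3.02 ± 0.10 (edgeR adjusted p = 1.83e-17), Mxd4 at 1.15 ± 0.09 (edgeR adjusted p = 5.29e-10) and Mxi1 at 1.07 ± 0.13 (edgeR adjusted p = 3.4e-07). DESeq2 called 4 of 9, as did each fit with a replicate number left out, the calls of Mycn and Mnt being lost. In both pairs of sets Myc rose less in B than in T cells.

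The third comparison asked whether IFNb alters the network of stimulated cells, or the response to anti-Btla. With IFNb on control Ig beads no member was called in any set: 0 of 9 in EAE B cells and 0 of 9 in naive B cells, where 0% of all genes were called in either (401 and 607 genes at an unadjusted p below 0.05, 2 and 7 called by DESeq2), 0 of 9 in EAE T cells against 0.158% of all genes, and 0 of 8 in naive T cells against 0% (926 genes at an unadjusted p below 0.05, 2 called by DESeq2). Myc averaged 309.9 ± 52.3 CPM with IFNb and 310.0 ± 9.52 CPM without in EAE B cells, and 291 ± 32.9 and 274 ± 28.7 CPM in naive B cells. In T cells it averaged 513 ± 43.2 CPM with IFNb and 485 ± 4.38 CPM without in EAE cells, and 444 ± 29.3 and 454 ± 34.1 CPM in naive cells. Each of these differences was smaller than the larger SD of its pair. In EAE T cells the share of mitochondrial counts was 5.71 to 7.40% with IFNb and 1.27 to 2.81% without, and its part in the result was not tested.

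With IFNb present, anti-Btla again lowered Myc in B cells. In EAE B cells 3 of 9 members were called with anti-Btla and IFNb against control Ig and IFNb, where 31.0% of all genes were; without the replicate block 1 of 9 remained above the threshold, that of Myc. In naive B cells 3 of 9 were called, where 29.5% of all genes were. Myc had 168, 139 and 159.6 CPM in EAE B cells with anti-Btla and IFNb, against 295, 368 and 266 CPM with control Ig and IFNb, and fell by 1.04 ± 0.12 (edgeR adjusted p = 2.11e-05). It had 173, 157 and 147 CPM in naive B cells with both, against 294, 322 and 256 CPM with control Ig and IFNb, and fell by 0.92 ± 0.07 (edgeR adjusted p = 1.55e-07). The groups did not overlap, and the anti-Btla effect with IFNb minus that without was -0.22 ± 0.17 in EAE and 0.02 ± 0.09 in naive B cells.

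Mxd4 rose in EAE B cells with IFNb as well, with 63.5, 64.5 and 78.1 CPM with anti-Btla, against 43.1, 48.3 and 58.4 CPM with control Ig, without overlap and with a change of 0.40 ± 0.07 (edgeR adjusted p = 0.00062). Mxi1 had 15.1, 15.9 and 18.0 CPM there, against 12.7, 13.8 and 12.7 CPM, a change of 0.26 ± 0.09 (edgeR adjusted p = 0.0404) that was lost with any 1 of the 6 libraries left out (0.054 to 0.256). In naive B cells the remaining calls were Mycn, at 0.85 ± 0.29 (edgeR adjusted p = 0.0402), and Max, at -0.19 ± 0.07 (edgeR adjusted p = 0.0463), each lost without any of 5 of the 6 libraries, Mycn also with DESeq2 (0.071) and Max also without the block (0.0825). Of the T cell members none was called with IFNb present: 0 of 9 in EAE T cells against 0% of all genes (1418 genes at an unadjusted p below 0.05, 54 called by DESeq2), and 0 of 8 in naive T cells against 0.0132%. Mitochondrial counts in these EAE T arms made up 6.57 to 10.2% with anti-Btla and 5.71 to 7.40% with control Ig, and their part was not tested.

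The test of whether IFNb altered the effect of anti-Btla called 0 members in all 4 sets and 0% of all genes in each. Genes at an unadjusted p below 0.05 numbered 375 in EAE B, 566 in naive B, 567 in EAE T and 960 in naive T cells, and DESeq2 called 7, 8, 9 and 9.

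EAE and naive cells were then compared within an arm. In B cells no member was called, with 0 of 9 in unstimulated cells against 0.0413% of all genes and 0 of 9 with control Ig, again against 0.0413%. Myc was nonetheless higher in all 3 EAE libraries (239, 262 and 198 CPM, against 189, 187 and 178 CPM in naive unstimulated B cells), by 0.35 ± 0.10 (edgeR adjusted p = 0.321).

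In T cells 5 of 9 members were called in unstimulated cells, where 37.3% of all genes were, and 5 of 9 with control Ig, where 50.0% of all genes were. Both counts include Mycn, which passed the filter on low counts through the EAE T libraries. Myc was higher in unstimulated EAE than naive T cells by 1.16 ± 0.18 (edgeR adjusted p = 0.00022), 2.14-fold in CPM, and with control Ig the difference was 0.16 ± 0.16 and was not called. Mxd1 differed most among the well expressed members. It averaged 227 ± 81.0 CPM in unstimulated EAE T cells and 63.8 CPM in naive ones (53.5 to 73.6 CPM), a difference of 1.91 ± 0.29 (edgeR adjusted p = 0.0002), and 281 ± 93.9 and 108 ± 18.4 CPM with control Ig, a difference of 1.44 ± 0.28 (edgeR adjusted p = 0.00079). No EAE T library overlapped a naive one in either arm. The 9 myeloid markers summed to 21.3 to 68.1 CPM in EAE and 12.7 to 35.6 CPM in naive T cells with control Ig, Cd8a and Cd8b1 to 14.7 to 15.2 and 597 to 752 CPM, and their part in this difference was not tested.

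Mxd4 was lower in EAE T cells in both arms, by -0.58 ± 0.12 unstimulated (edgeR adjusted p = 0.00242) and by -0.80 ± 0.13 with control Ig (edgeR adjusted p = 0.000241). Mxi1 was lower in unstimulated EAE T cells (36.5 ± 3.32 CPM against 55.1 ± 2.53 CPM in naive, -0.52 ± 0.11, edgeR adjusted p = 0.00275) and higher in EAE T cells with control Ig (42.5 ± 5.73 CPM against 24.8 ± 1.81 CPM in naive, 0.84 ± 0.12, edgeR adjusted p = 5.31e-05). Max was higher with control Ig, by 0.71 ± 0.06 (edgeR adjusted p = 9.84e-07), and differed by 0.15 ± 0.06 in unstimulated cells (edgeR adjusted p = 0.071).

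Mycn held 30 counts over the unstimulated EAE T libraries, 4 to 19 in each, against 2 counts over the naive ones. Per depth the ratio was 13.8 (95% exact interval 3.50 to 119, counting error only). With control Ig the naive libraries held 0 to 6 counts. Mycn was too low to be tested within naive T cells and passed the filter on low counts here through the EAE T libraries. Its edgeR calls in both arms (adjusted p = 0.00526 unstimulated and 0.00248 with control Ig) are therefore no support for the difference. Over all 15 naive T libraries Mycn had 32 counts and was at 0 in 3 of them.

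B and T cells were set side by side in naive mice. Here too the libraries were counted on different sets of transcripts and may have been sequenced apart, so that cell type and such a batch cannot be told apart. Cd8a and Cd8b1 summed to 926 to 1100 CPM in unstimulated naive T cells and 597 to 752 CPM with control Ig, and their part was not tested. In unstimulated cells 7 of 9 members were called, where 60.7% of all genes were, and with control Ig 8 of 9, where 57.9% were. Myc was higher in unstimulated naive B than naive T cells by 2.26 ± 0.10 (edgeR adjusted p = 3.97e-11), 4.90-fold in CPM, and lower in B cells with control Ig, by -0.71 ± 0.09 (edgeR adjusted p = 7e-06). Mxd4 did the reverse, with -0.45 ± 0.08 in unstimulated cells (edgeR adjusted p = 0.000193) and 0.74 ± 0.08 with control Ig (edgeR adjusted p = 2.05e-06). Mycn held 127 counts over the unstimulated naive B libraries against 2 over the T cell ones, a ratio per depth of 26.3 (95% exact interval 7.14 to 220, counting error only). It passed the filter on low counts through the B cell libraries. Its call with control Ig was lost with a replicate block (edgeR adjusted p = 0.0504) and by DESeq2 (0.0588). That call was also lost without control Ig library 2 or 3 of naive B cells, or 1 or 3 of naive T cells. Mxd1, Mxi1, Max and Mlx were lower in B cells in both arms, and Mnt with control Ig, by -0.35 ± 0.09 (edgeR adjusted p = 0.00302). Mxd1 had the widest gap, -2.30 ± 0.15 unstimulated (edgeR adjusted p = 3.22e-09) and -2.98 ± 0.15 with control Ig (edgeR adjusted p = 2.06e-10), and its group means ran from 12.4 to 15.3 CPM in B cells.

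**Figure D3:**
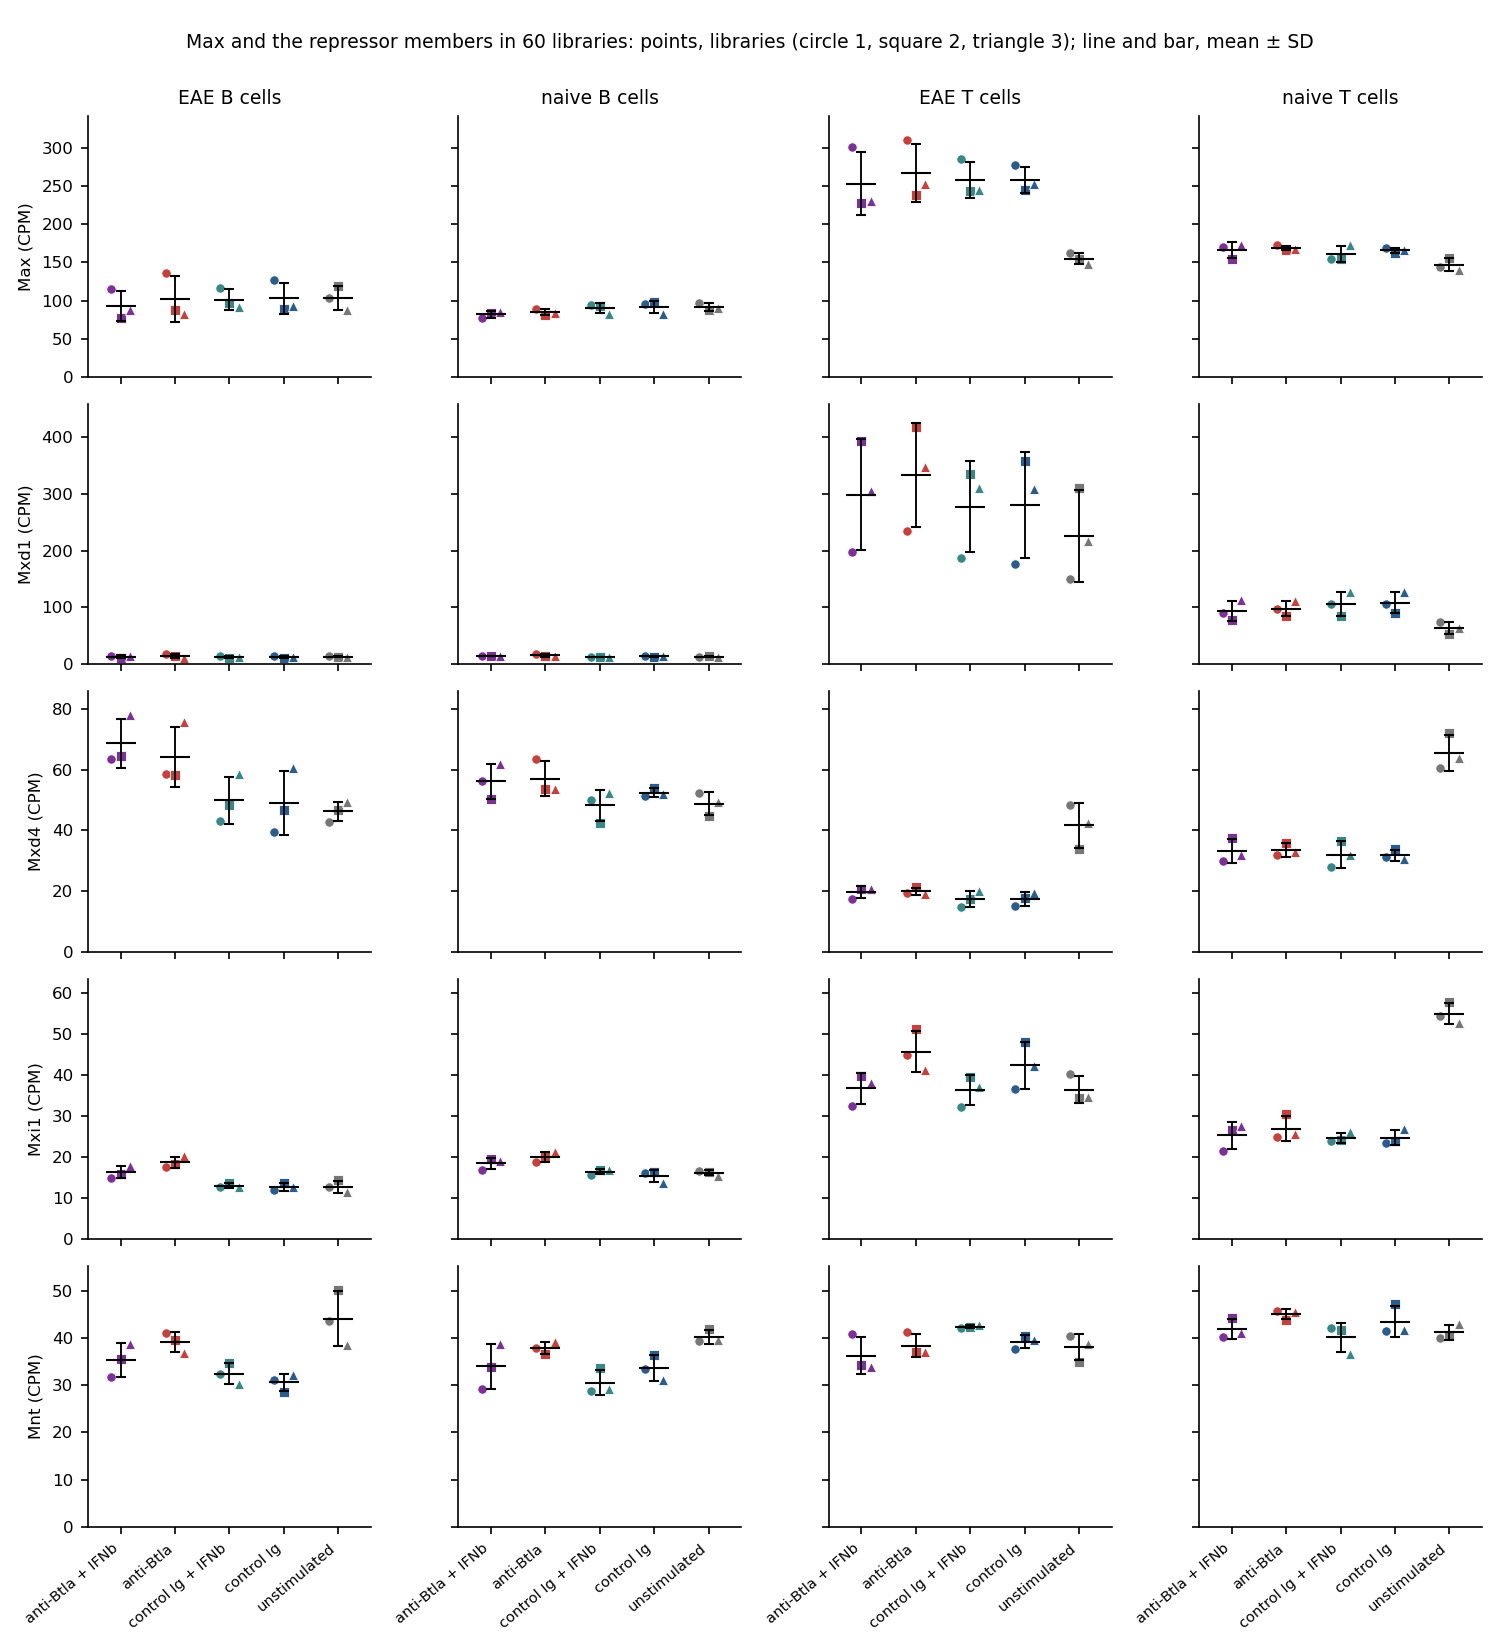
Max, Mxd1, Mxd4, Mxi1 and Mnt in CPM (rows, each y axis from 0) in every library, by arm, in EAE B, naive B, EAE T and naive T cells; points are libraries 1 to 3, the line and bar are mean ± SD. Mxd1 is near the floor of its axis in B cells and highest in EAE T cells, where library 1 is the lowest in every arm, and Mxd4 in T cells averages 17.4 and 31.9 CPM with control Ig, against 41.7 and 65.5 CPM unstimulated (EAE and naive).

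Levels of different members were compared per length, as CPM per kb of the longest protein-coding transcript in the tables. Myc led the network in all stimulated groups and in unstimulated B cells, with 207.6 CPM per kb in EAE T and 132.6 in EAE B cells with control Ig. In unstimulated T cells Max led by CPM per kb as well, with 79.9 in EAE and 75.6 in naive T cells, and Myc had 34.4 and 16.1. The foremost repressor differed between B cells and stimulated T cells. In B cells it was Mxd4, with 12.7 CPM per kb in EAE and 13.6 in naive cells with control Ig, and in stimulated T cells it was Mxd1, with 60.2 and 23.2 CPM per kb. In unstimulated T cells it was Mxd1 in EAE cells (48.6 CPM per kb). In unstimulated naive T cells it was Mxd4, as in B cells (16.9 CPM per kb, against 13.7 for Mxd1).

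The per-length levels gave a ratio of Myc to the sum of Mxd1, Mxd3, Mxd4, Mxi1 and Mnt in each library. With control Ig it was 5.26 ± 0.605 in EAE B, 4.25 ± 0.343 in naive B, 2.65 ± 0.827 in EAE T and 4.17 ± 0.479 in naive T cells. In unstimulated cells it was 3.60 ± 0.379, 2.81 ± 0.0854, 0.448 ± 0.0635 and 0.314 ± 0.0225 in the same order of sets. With anti-Btla it was 2.46 ± 0.598 in EAE B and 2.08 ± 0.0693 in naive B cells, below every control Ig and every unstimulated library of the same set. In T cells it was 1.88 ± 0.459 in EAE and 4.03 ± 0.31 in naive cells, overlapping control Ig in both. Within each number it was lower in EAE T cells, at 2.39, 1.5 and 1.75 against 3.6, 2.05 and 2.31 with control Ig. The naive T libraries had 4.05, 4.33 and 3.72 against 3.92, 4.72 and 3.88. The ratio is of RNA levels and was not tested.

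**Figure D4:**
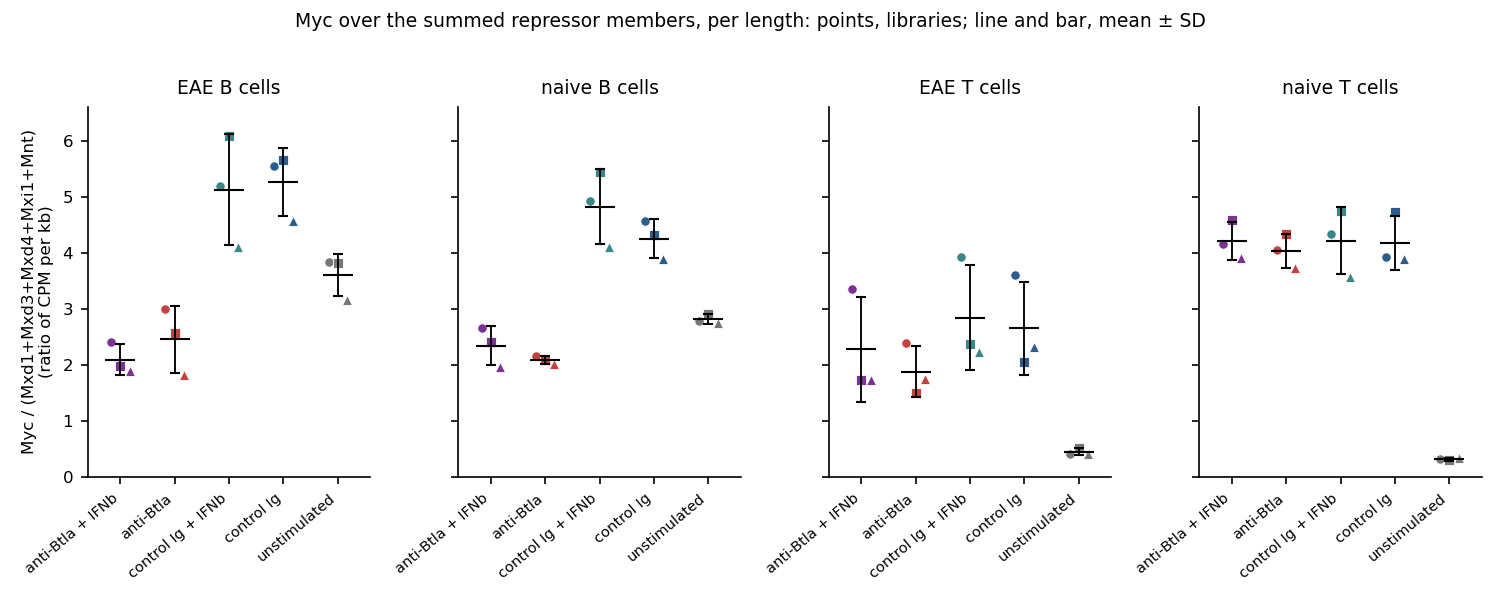
Ratio of Myc to the summed Mxd1, Mxd3, Mxd4, Mxi1 and Mnt, each as CPM per kb (y axis, from 0), in every library, by arm and set; points are libraries, the line and bar are mean ± SD. The anti-Btla arms of B cells have means of 2.08 to 2.46, against 4.25 and 5.26 with control Ig, and unstimulated T cells lie below 1.

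Genes that the network is known to act on were counted from lists. The lists were chosen with earlier results of these data known, so their counts are a description and no independent test. Of 32 target genes of Myc for growth and ribosome biogenesis, 32 were called higher with control Ig than unstimulated in each of the 4 sets. Their median change was 0.81 in EAE B, 0.79 in naive B, 2.09 in EAE T and 1.64 in naive T cells, where the median of all genes lay between -0.07 and -0.02. Over all genes tested, 3576 of 17007 were called higher in EAE B and 3779 of 16620 in naive B cells. In T cells these were 4626 of 14572 in EAE and 4107 of 15150 in naive cells. In B cells Ldha (lactate dehydrogenase) rose by 1.43 ± 0.06 in EAE (edgeR adjusted p = 5.5e-09) and 1.34 ± 0.05 in naive cells (edgeR adjusted p = 1.94e-10). In T cells Tfrc, the transferrin receptor, rose by 3.36 ± 0.13 in EAE (edgeR adjusted p = 1.7e-11) and 2.71 ± 0.06 in naive cells (edgeR adjusted p = 4.18e-17).

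With anti-Btla all 32 of these genes were called lower in EAE B cells and in naive B cells (medians of -0.76 in both, against 0.04 and 0.01 for all genes), and 32 again with IFNb present (-0.80 and -0.76). Over all genes tested, 2809 of 17007 were called lower in EAE B and 3285 of 16620 in naive B cells. With IFNb present these were 2959 of 17007 and 2918 of 16620. Ldha fell by 1.08 ± 0.06 in EAE B (edgeR adjusted p = 1.76e-07) and by 1.01 ± 0.05 in naive B cells (edgeR adjusted p = 1.09e-08), the cyclin Ccnd2 by 1.21 ± 0.06 in naive B cells (edgeR adjusted p = 1.07e-08) and the polyamine enzyme Srm by 1.05 ± 0.08 in EAE B cells (edgeR adjusted p = 8.91e-07). In T cells 0 of 32 were called, with medians of -0.22 in EAE and -0.04 in naive cells, where 0.0686% and 0% of all genes were called. Between EAE and naive T cells with control Ig, 28 were called higher and 1 lower in EAE (median 0.71), where 50.0% of all genes were called. Between unstimulated EAE and naive T cells 8 were called higher and 4 lower (0.03), where 37.3% of all genes were called.

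Genes that Myc represses through Miz1 did not move as one. Cdkn1b, the cell cycle inhibitor p27, fell with control Ig against unstimulated cells in all 4 sets, by 0.43 ± 0.07 in EAE B, 0.48 ± 0.06 in naive B, 1.69 ± 0.13 in EAE T and 1.04 ± 0.06 in naive T cells (edgeR adjusted p of 0.000306, 1e-05, 1.69e-08 and 1.2e-10). With anti-Btla it rose by 0.43 ± 0.07 in EAE and 0.43 ± 0.06 in naive B cells (edgeR adjusted p = 0.000519 and 4.38e-05). Cdkn1a, the inhibitor p21, went the other way, with -0.99 ± 0.16 in EAE and -1.01 ± 0.13 in naive B cells with anti-Btla (edgeR adjusted p = 0.000374 and 1.9e-05). Of the 7 genes tested in that list, 1 was higher and 2 lower in each B cell set with anti-Btla, near the 30.1% (EAE) and 32.8% (naive) of all genes called there.

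Targets of the Mondo partners of Mlx split as well. Txnip, a sensor gene of glucose flux, fell by 1.34 ± 0.07 in EAE and by 1.15 ± 0.08 in naive B cells with control Ig against unstimulated cells (edgeR adjusted p = 3.31e-08 and 2.08e-08), and rose by 0.57 ± 0.08 and 0.54 ± 0.08 with anti-Btla (edgeR adjusted p = 7.56e-05 and 4.66e-05). Hk2, a hexokinase, rose by 0.96 ± 0.10 and 0.97 ± 0.08 and then fell by 0.87 ± 0.11 and 0.91 ± 0.08 in the same comparisons (edgeR adjusted p = 6.59e-06, 9.95e-08, 4.86e-05 and 4.15e-07). With anti-Btla, 1 of 6 genes tested in this list was called higher and 3 lower in EAE B cells, and 1 of 5 and 3 in naive B cells. Over all genes, 2315 of 17007 were called higher and 2809 lower in EAE B cells. In naive B cells these were 2172 and 3285 of 16620. Mlxip, the Mondo partner itself, rose with anti-Btla by 0.34 ± 0.07 in EAE and 0.15 ± 0.05 in naive B cells (edgeR adjusted p = 0.00214 and 0.0332). It was the only one of the 4 further network genes tested that was called in either set, where 30.1% (EAE) and 32.8% (naive) of all genes were called.

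Among 13 cofactors of the network, 5 were lower with anti-Btla in EAE B and 7 in naive B cells and none was higher, where 2809 of 17007 genes tested were lower in EAE B and 3285 of 16620 in naive B cells. The helicase Ruvbl2 fell by 0.92 ± 0.10 and 1.00 ± 0.09 (edgeR adjusted p = 1.94e-05 and 1.19e-06) and Ruvbl1 by 0.82 ± 0.09 and 0.78 ± 0.09 (edgeR adjusted p = 1.77e-05 and 1.23e-05). Of 10 genes for the turnover of Myc protein, 1 was lower in EAE B and 4 in naive B cells, a count to be read against the same numbers over all genes, and the deubiquitinase Usp22 fell by 0.23 ± 0.06 and 0.29 ± 0.05 (edgeR adjusted p = 0.0078 and 0.000723). In T cells Usp28, a deubiquitinase that stabilizes Myc, fell by 2.10 ± 0.09 in EAE and by 1.36 ± 0.07 in naive cells with control Ig against unstimulated cells (edgeR adjusted p = 3.19e-11 and 2.85e-11).

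The genes whose pattern was most like that of Myc were found by Pearson correlation over 10 group means (log2 of CPM + 0.5) among 8830 genes, as a description only, since the 10 groups share a cell type and perhaps its sequencing. In B cells these were Tubb4b, Hyou1, Slc3a2, Nup62 and Fam129a, with r of 0.99 to 0.996. In T cells they were Sh3bp2, Slc29a1, Nol10, Zdhhc5 and Tsr1, with r of 0.994 to 0.999. Within the network, Mxi1 ran most opposite to Myc in B cells (r of -0.754, with Mxd1 at -0.701 and Mxd4 at -0.671) and Mxd4 in T cells (r of -0.789). Max had r of 0.561 in B and 0.543 in T cells. None of these values stood out among the 8830 genes. Ranked from most like to most opposite, Mxi1 was number 6750 and Max number 2848 in B cells. Mxd4 was number 7904 and Max number 2587 in T cells.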

How the data were processed

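Column-purified RNA of 60 libraries (20 groups of 3) was read by Illumina HiSeq. The authors deposited 67 tables of estimated counts per transcript made with Salmon (version not given) on GRCm38, and the submitters' notes also name DESeq2; the deposited TPM entered no test, since 1 short transcript dominates the TPM of Max. Both runs of 7 libraries were summed. Estimated counts were summed to genes with GENCODE M21, scaled to CPM of counts in genes for levels, and rounded to whole numbers for the tests. B cell libraries had a median depth of 33.0 M counts (6.68 to 62.0 M), and T cell libraries one of 13.1 M (7.30 to 34.0 M).

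Tests used edgeR 4.0.16 in R 4.3.3 (quasi-likelihood F-test, TMM, filterByExpr with a minimum count of 10, Benjamini-Hochberg over all genes, threshold 0.05). The 15 libraries of a set shared a fit with the replicate number as a block, following the study's general statistical methods; differences between effects used 30 libraries, and EAE against naive and B against T had no block. Same-numbered libraries deviated together (median correlation of 0.534 in EAE B, 0.475 in naive B, 0.334 in EAE T and 0.274 in naive T cells, with 29, 25, 29 and 29 of 30 pairs above 0.1). Nothing in the labels says that libraries of a group came from separate mice, so p-values measure only how far these samples spread, which may be technical. Alternatives were no block (or a block), DESeq2 size factors, total count scaling, no filter, DESeq2 1.42.0 and leaving out each library or number. The fit was also run on simulated counts, which held no effect of replicate number and so say nothing of the replicate block. Figures used matplotlib 3.10.9.

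The rule named the 9 members, of which those not called are given in part as counts, up to 4 genes of a list with the smallest p, and the 5 genes most like Myc in each cell type (mean of at least 10 CPM). The members and lists were chosen with earlier results of these data known.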

Additional observations from a re-analysis of the deposited data

Results flagged for a closer look

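These differences between effects passed their own edgeR test, each as log2 ± SE, and are given as values. The activation effect in EAE T minus that in naive T cells was -0.93 ± 0.18 for Myc, 0.61 ± 0.10 for Max, -0.41 ± 0.11 for Mxd1 and 1.41 ± 0.15 for Mxi1, where Mxd1 was not called without the block (edgeR adjusted p = 0.48) or without the libraries numbered 2 (0.124). The activation effect in EAE B minus that in EAE T cells was -2.10 ± 0.21 for Myc, -1.97 ± 0.56 for Mycn, -0.68 ± 0.15 for Max, 1.41 ± 0.16 for Mxd4, -0.48 ± 0.14 for Mnt and -0.48 ± 0.15 for Mlx. Of these, Mnt and Mlx were not called without the libraries numbered 2 (-0.22 and -0.36, edgeR adjusted p = 0.392 and 0.174), Mlx also without the filter (0.0621), Mycn without those numbered 3 (0.0868) and Max without the block (0.079). The activation effect in naive B minus that in naive T cells was -3.02 ± 0.10 for Myc, -2.99 ± 1.07 for Mycn, -0.72 ± 0.13 for Mxd1, 1.15 ± 0.09 for Mxd4, 1.07 ± 0.13 for Mxi1 and -0.33 ± 0.12 for Mnt. The call of Mnt was lost without the block (edgeR adjusted p = 0.0526), with DESeq2 size factors (0.0585), by DESeq2 (0.0571) and without any 1 of the 3 numbers (0.0898 to 0.35), and that of Mycn by DESeq2 (0.0622) and without any 1 of the 3 numbers (0.111 to 0.251). Mycn held 2 counts over the unstimulated naive T libraries, so that its value there is no measure of size. It passed the filter on low counts in that fit through the B cell libraries. The anti-Btla effect in naive B minus that in naive T cells was -0.81 ± 0.09 for Myc.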

How the results depend on the processing

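Of 73 calls of members in 34 comparisons none reversed under any alternative. DESeq2 lost 5, its size factors in edgeR 3, total count scaling 4, no filter 8, no replicate block 12 of 48 and an added replicate block 1 of 25 (Mycn, B against T with control Ig, 1.60, edgeR adjusted p = 0.0504); leaving out a library or number lost 57 and kept 330. Without the replicate block the members called numbered 2 in place of 4 for anti-Btla in EAE B cells and 1 in place of 3 with IFNb. Mxd1 was the 1 member gained without the filter and with DESeq2 for anti-Btla in EAE T cells (0.33 and 0.30) and for its difference from naive T cells (0.49 and 0.46), and Myc the 1 gained without the filter for EAE B minus EAE T cells (-0.64). With libraries left out, the count ranged from 1 to 3 for activation in naive B cells (1 without unstimulated library 1), 2 to 4 for anti-Btla in naive B cells (2 without anti-Btla library 3) and 1 to 2 with IFNb. Total count scaling moved the median of all genes by over 0.1 in 3 comparisons (-0.131 and -0.107 for activation in EAE B and naive B cells, 0.158 for the anti-Btla effect in EAE B minus EAE T cells). TMM library sizes moved 21 of 180 group means by over 1 SD, and the first run alone 0 of 54. Depth limits Mycn and Mxd3, at 0 to 78 counts per library.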
